A study of Bos taurus with 8 samples.

Results

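Chemokines are small secreted proteins that call white blood cells to a tissue, and chemokine receptors are the G protein-coupled receptors on those cells that read them. The genes described here are the chemokines, their receptors and the chemokine-like CMTM family, chosen by the gene symbols of the array: 58 genes with 109 probes, of 17025 named genes and 43653 probes. Transcripts were measured on single-colour Agilent bovine arrays in whole blood of Holstein Friesian cows, all female. The treated group, CPE, was blood kept with 10 µg/ml of a phenolic extract of cowpea leaf for 30 min at 37 °C and 5% CO2 (4 arrays). The other group, CONTROL, was blood kept in the same way without the extract (4 arrays). The 5 cows had all been fed a probiotic for 60 days, so neither group is blood of unsupplemented animals. The series text says that RNA of the cows was combined for each group. The 4 arrays may therefore repeat 1 pool, in which case each standard error (SE) and p-value measures the spread between arrays and not between cows.

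CXC chemokines of the GRO type (CXCL1, CXCL2 and CXCL3) act on CXCR2. CXCL8 acts on CXCR1 and CXCR2, the receptors through which neutrophils leave the blood. Receptors such as CXCR3, CXCR6 and CCR7 steer T cells and natural killer (NK) cells, and CX3CR1 marks patrolling monocytes and cytotoxic lymphocytes. Transcripts of inducible chemokines are short-lived and can change within minutes of a stimulus, in part through AU-rich elements that carry ATTTA.

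Each group lay on a slide of its own, and the 2 slides were scanned on different days and read with different versions of the spot grid, so the effect of slide and that of the extract cannot be told apart. Large areas of the arrays were dim. The comparison therefore used the lit area, the spots whose surroundings were bright on all 8 arrays, which held 29.9% of the spots that are not controls. Over all spots with bright surroundings on the array in question, the 75th percentile of the signal was 417 to 635 intensity units in CPE and 553 to 635 in CONTROL. No spot was saturated. Across tested probes, arrays correlated with r of 0.970 to 0.998 within CPE and 0.985 to 0.997 within CONTROL, against 0.918 to 0.970 between groups. CPE replicate 3 and CONTROL replicate 4 stood apart from their groups, and values without them are given where they move a result. Levels are processed signal as a percent of the 75th percentile of the same array over the lit area, that is, over spots lit on all 8 arrays. They are compared between arrays for 1 probe at a time. The precision is limited by the number of arrays.

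The sequences of the probes matter here, because related chemokine genes can cross-hybridise and because the gene with the largest change was read by a single probe. All come from the deposited averages table and are 60 bases long in full. The first 3 lines show stretches of 30 bases. The GRO1 stretch is the 3′ end of its probe, with the pentamer ATTTA in capitals. The CXCL2 and CXCL3 stretches are the same part of 2 related probes, with differing bases in capitals.
GRO1: gttaatgtagggaatgtatgtatacATTTA
CXCL2: caCaatgccttgtttCatgttAaTtatgCA
CXCL3: caTaatgccttgtttAatgttTaCtatgTG
On either strand, ATTTA was found in 15.1% of all 43653 probes and in 24 of the 109 member probes (22.0%). The CXCL2 and CXCL3 probes matched at 45 of 55 aligned bases (81.8%), the closest pair among probes of different member genes over at least 30 aligned bases, so a value of either may include the other.

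Receptor probes are shown next, since CXCR1 and CXCR2 are closely related. In the pair of whole probes, capitals mark the bases that differ over 38 aligned bases, of which 29 were identical (76.3%). The last line is a stretch of 30 bases of the CXCR1 probe on which the CXCR1 result rests. The polyadenylation hexamer AATAAA is in capitals, which 9.35% of all probes held as deposited and 12.5% on either strand.
CXCR2 (A_73_P040406): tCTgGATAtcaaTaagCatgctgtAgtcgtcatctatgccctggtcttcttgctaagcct
CXCR1 (A_73_P171852): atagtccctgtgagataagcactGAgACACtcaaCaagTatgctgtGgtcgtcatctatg
CXCR1 (A_73_115473): ttctgtggtataAATAAAtgctaccaccat
A_73_P040406 and A_73_115473 lay in the lit area and gave the results below. A_73_P171852 lay in dark surroundings and was not used. The files call A_73_115473 CXCR2, but its transcript, NM_174360, is CXCR1 in the reference gene table, and it is called CXCR1 here.

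Detection set what could be compared. Of the 58 genes, 32 had a probe in the lit area and 26 had none. A lit probe was well above background on all 8 arrays, by the scanner software's call, for 12 genes (13 probes). For 9 genes with lit probes, none of those probes was well above background on any array: CCL11, CCL21, CCL22, CCL26, CCL28, CXCL9, CXCL13, CXCL14 and XCR1. The genes with no probe lit on all 8 arrays include the neutrophil attractant CXCL8, the inflammatory ligands CCL2, CCL4, CCL5, CCL8 and CCL20, and the receptors CCR1, CCR3, CCR6, CXCR4 and CXCR5. The others are CCL14, CCL16, CCL17, CCL27, CCR4, CCR7, CMTM2, CMTM3, CMTM5, CMTM6, CX3CL1, CXCL3, CXCL5, CXCL17 and XCL1. CXCL5 is CXCL6 in the files.

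**Figure D1:**
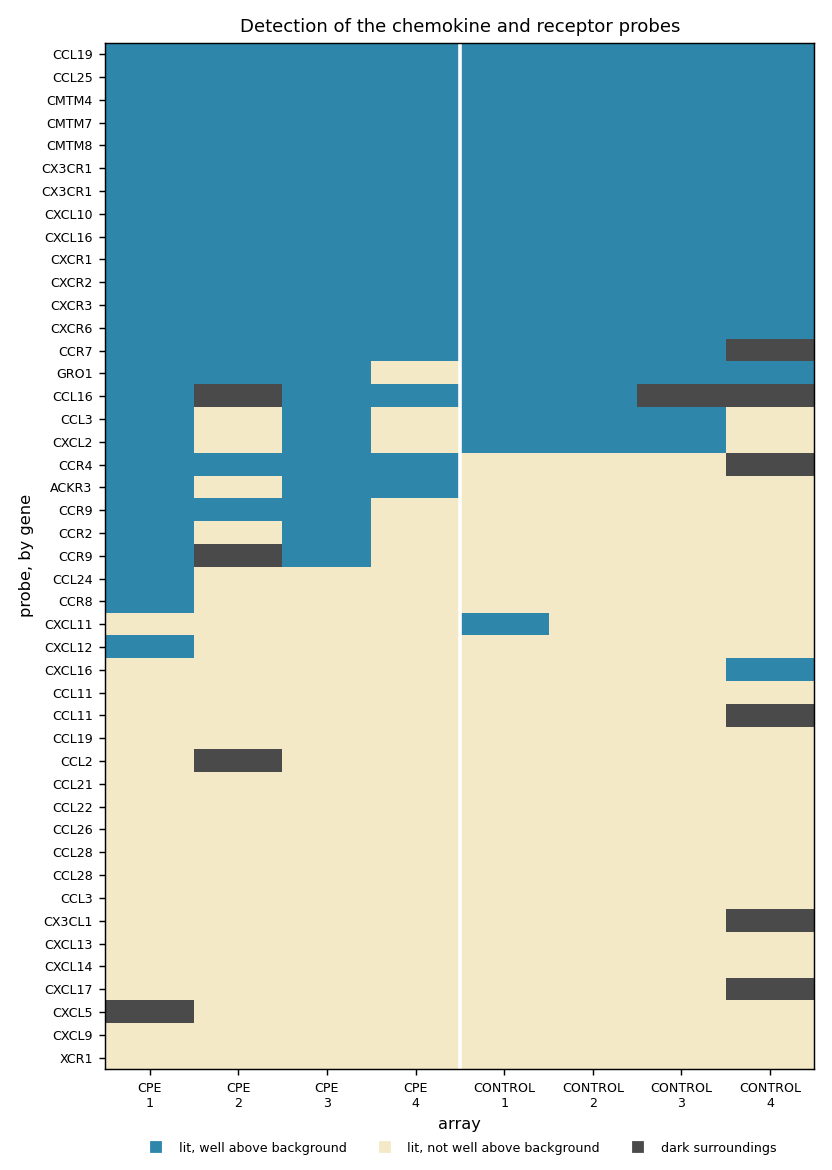
Detection of the member probes reported here that were lit on at least 2 arrays of each group, one row per probe (labelled by gene) and one column per array, CPE left of CONTROL. Blue marks a lit spot well above background, cream a lit spot that was not, and grey a spot in dark surroundings. The top 13 rows are the probes well above background on all 8 arrays.

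Among the 12 genes tested on all 8 arrays, 3 rose and 4 fell in CPE, and 5 did not pass the test (limma, Benjamini-Hochberg over all probes, threshold 0.05). CMTM7, CXCR6 and CMTM8 rose, and CCL19, CXCR1, CXCR2 and CX3CR1 fell. The same test called 47.4% of the 4848 genes measured in this way (24.3% higher and 23.1% lower), so with 7 of 12 called the number is read as no result about the members. The 2 groups of arrays did not overlap for 9 of the 12 genes, and for 49.4% of all genes measured so. The median log2 change was -0.088 over the tested members and 0.026 over all genes tested. A wider filter asked for a call well above background on the 4 arrays of 1 group or of both. GRO1 (lower) was measured under it, and it called 47.4% of 5375 genes, 25.3% higher and 22.2% lower.

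**Figure D2:**
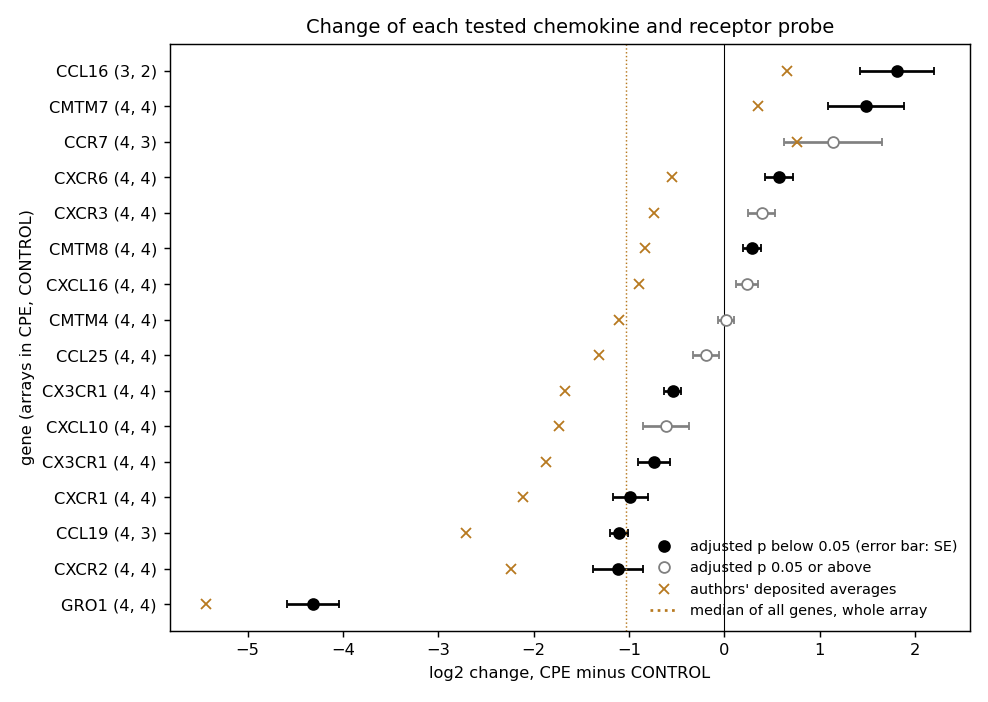
Log2 change, CPE minus CONTROL, of each tested member probe reported here (points, with the SE as error bar), with the number of arrays used in CPE and CONTROL behind each gene. Filled points passed an adjusted p of 0.05. Crosses are the differences in the authors' deposited averages, and the dotted line is the median of all genes over the whole array, -1.03. The crosses lie left of the points for every probe shown, and GRO1 lies farthest left on both scales.

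GRO1, named CXCL1 in other species, is a ligand of CXCR2 that draws neutrophils. Its signal was 3.82, 6.85, 3.61 and 2.38% of the 75th percentile on the 4 CPE arrays, against 81.0, 74.3, 75.2 and 77.2% on the 4 CONTROL arrays. All CPE arrays lay far below all CONTROL arrays, and the CONTROL arrays lay close together. GRO1 fell, with a log2 change of -4.31 (SE 0.27) and an adjusted p of 1.06e-05 by limma under the wider filter. The spot was well above background on 3 of 4 CPE arrays and on 4 of 4 CONTROL arrays. GRO1 thus entered that filter only through CONTROL, the group in which it was high, and its p-value is not read as support. The size of the log2 change is limited by the background in CPE and is not read as a fold. The surroundings of this spot were also somewhat dimmer in CPE: relative to the level of the array, local brightness was -1.34 to -1.09 log2 units in CPE and -0.86 to -0.77 in CONTROL. After local centring, which subtracts the deviation of neighbouring spots, the change was -4.05. With normexp background correction, which lifts dim signals by a fixed offset, it was -1.83 (adjusted p = 0.00588).

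CXCL2, the next GRO-type ligand, was well above background on 2 CPE arrays and 3 CONTROL arrays, so it had no test. Its levels were 4.53, 2.71, 6.26 and 2.83% in CPE, against 7.44, 8.01, 7.62 and 5.59% in CONTROL. The groups overlapped on 1 CPE array, replicate 3, whose level exceeded that of CONTROL replicate 4. CCL3, a ligand of CCR1, was likewise well above background on 2 CPE arrays and 3 CONTROL arrays at a lit probe. Its levels of 7.16, 3.85, 22.5 and 4.55% in CPE spanned those of 12.2, 14.2, 13.2 and 5.76% in CONTROL. Another CCL3 probe, A_73_119009, was well above background on all 8 arrays but in dark surroundings. Its levels were 7.73, 21.1, 63.8 and 15.9% in CPE, against 19.4, 21.7, 23.7 and 13.9% in CONTROL. With every spot of the array used, its log2 change was -1.06 (SE 0.50, adjusted p = 0.0781, limma), where the median of all genes was -1.03.

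CCL19, the CCR7 ligand that guides T cells and dendritic cells to lymph nodes, fell. Its levels were 6.93, 7.57, 6.71 and 7.63% in CPE, against 15.5, 17.0 and 14.2% on 3 CONTROL arrays, and the spot of CONTROL replicate 4 was left out as an outlier by the scanner software. Every CPE array lay below every CONTROL array. CCL19 had a log2 change of -1.11 (SE 0.099, adjusted p = 9.92e-05, limma), which was -0.20 with normexp (adjusted p = 0.755), where the call was lost. A further lit CCL19 probe was not well above background on any array. The first 30 bases of the probe with the change hold a run of the hexamer TGTGAG, in capitals here.
CCL19: agtgtcatTGTGAGTGTGAGTGTGAGtgag

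CXCL10, the interferon-induced ligand of CXCR3, had levels of 30.1, 33.4, 14.4 and 29.4% in CPE, against 39.8, 38.9, 40.7 and 36.5% in CONTROL. CPE replicate 3 was lower than the other arrays of its group, and the groups did not overlap. The log2 change was -0.61 (SE 0.24) and missed the threshold (adjusted p = 0.0633, limma). Without CPE replicate 3 it was smaller, -0.33, and passed (adjusted p = 0.00567). It also passed without CPE replicate 2 (-0.74, adjusted p = 0.0425), and in all under 3 of 23 alternative settings. After local centring the CXCL10 change was -0.10 (adjusted p = 0.105). Another CXCL10 probe, A_73_114710, went the other way, at 124, 15.8, 185 and 77.7% in CPE, against 12.5, 10.3, 4.89 and 8.85% in CONTROL. Its surroundings were dark on all CONTROL arrays, at -4.53 to -3.99 log2 units, against -4.14 to -1.06 in CPE, so it was not fitted among the lit spots.

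CXCL16, the ligand of CXCR6, and CCL25, the ligand of CCR9 in the gut and thymus, did not pass the test. The CXCL16 log2 change was 0.23 (SE 0.11, adjusted p = 0.117) and that of CCL25 was -0.19 (SE 0.14, adjusted p = 0.264), both by limma. CXCL16 levels were 169 to 198% in CPE and 131 to 180% in CONTROL, and CCL25 levels were 47.4 to 72.0% in CPE and 65.6 to 77.3% in CONTROL. Another lit CXCL16 probe was well above background only on CONTROL replicate 4. CCL16, a ligand of several CC receptors in humans, had a spot lit on 3 CPE arrays and 2 CONTROL arrays. On those arrays its levels were 77.0, 162 and 69.6% in CPE, against 30.1 and 24.7% in CONTROL. In a fit over arrays on which a spot was lit, which called 45.5% of 5568 genes (26% higher and 19.6% lower), the log2 change of CCL16 was 1.81 and passed (SE 0.39, adjusted p = 0.0145, limma). The surroundings of the CCL16 spot were also brighter in CPE: on those arrays local brightness was -0.37, -0.014 and -0.52 log2 units in CPE, against -1.38 and -1.47 in CONTROL. Their part in the CCL16 change was not tested.

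CXCR1 and CXCR2 are the receptors of CXCL8 on neutrophils, CXCR2 is also that of the GRO ligands, and both receptors fell. CXCR1 levels were 231, 240, 140 and 248% in CPE, against 382, 411, 390 and 484% in CONTROL. CXCR2 levels were 28.4, 31.6, 13.0 and 27.9% in CPE, against 48.7, 47.7, 61.7 and 50.3% in CONTROL. For both genes each CPE array lay below each CONTROL array, and CPE replicate 3 was the lowest. The log2 change was -0.99 for CXCR1 (SE 0.19, adjusted p = 0.00258) and -1.12 for CXCR2 (SE 0.26, adjusted p = 0.00762), both by limma. Without CPE replicate 3 the changes were -0.79 and -0.83, and both passed. After local centring, where the median of all genes was 0.14, they were -0.63 and -0.60, and both passed. Another CXCR1 probe, A_73_P038900, was well above background on all 8 arrays but dark on all CONTROL arrays, so it was not fitted among the lit spots. With every spot of the array used, its log2 change was -0.047 (SE 0.49, adjusted p = 0.935), where the median of all genes was -1.03. The 2 CXCR1 probes thus did not give the same change.

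Neutrophil markers did not move one way beside these receptors. Of 15 neutrophil markers, 4 were tested: CSF3R, the receptor for the granulocyte growth factor, fell by 0.92 on the log2 scale, S100A12 and BPI rose by 0.25 and 0.44, and FCGR3A did not pass (0.34). The summed level of the 4 was 104 to 119 in CPE and 97.7 to 107 in CONTROL, in multiples of the 75th percentile. Most of that sum was S100A12, so it does not describe the markers as a set. In whole blood, fewer cells of a type and less RNA per cell cannot be told apart.

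CX3CR1, the fractalkine receptor of patrolling monocytes and cytotoxic lymphocytes, fell at both of its probes. At A_73_P047336 the levels were 349, 471, 253 and 327% in CPE, against 565, 562, 542 and 618% in CONTROL. At A_73_P337156 they were 81.1, 95.6, 91.6 and 83.2% in CPE, against 120, 125, 133 and 135% in CONTROL. Neither probe had overlapping groups. The log2 changes were -0.74 (SE 0.17, adjusted p = 0.00664) and -0.55 (SE 0.086, adjusted p = 0.00104, limma). The surroundings differed at the first probe, where mean local brightness was 0.61 log2 units lower in CPE, and hardly at the other, with a difference of 0.068. After local centring the changes were -0.40 and -0.51. Of the tested NK markers, KLRD1 and GNLY rose (0.96 and 1.26), NKG7 fell (-0.78), and GZMB and TBX21 did not pass. The summed level of these 5 was 35.2 to 39.6 in CPE and 18.3 to 21.4 in CONTROL. Most of that sum was GNLY, at 3148 to 3668% in CPE and 1285 to 1531% in CONTROL, so it does not describe the markers as a set. Among 5 tested monocyte markers, CSF1R fell (-0.74) and FCN1 and CD86 rose (0.29 and 0.65). The part of these markers in the CX3CR1 result was not tested.

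**Figure D3:**
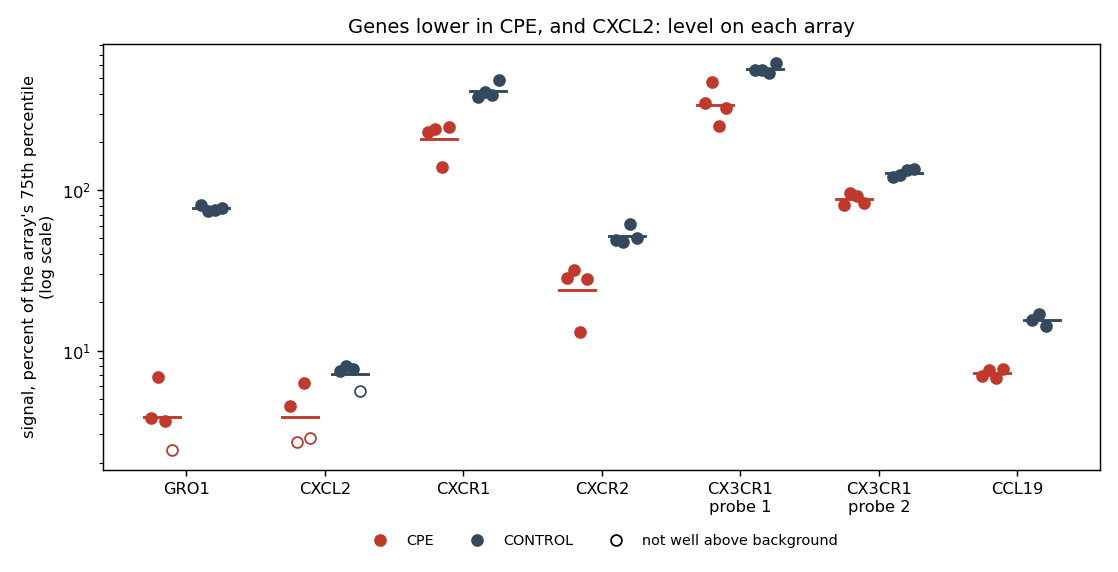
Level of GRO1, CXCL2, CXCR1, CXCR2, both CX3CR1 probes and CCL19 on each array (points; CPE left, CONTROL right; log axis), as a percent of the 75th percentile of the array. Bars are means of log values, and open points are spots not well above background. GRO1 reads 2.38 to 6.85% in CPE and 74.3 to 81.0% in CONTROL, and CXCL2 is the gene shown whose groups overlap.

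CXCR6, which holds memory T cells and NK cells in tissues through CXCL16, rose. Its levels were 408, 351, 453 and 428% in CPE, against 305, 295, 305 and 207% in CONTROL. All CPE arrays lay above all CONTROL arrays, and CONTROL replicate 4 was low in its group. The log2 change was 0.57 (SE 0.15, adjusted p = 0.0111, limma), and 0.44 without CONTROL replicate 4 (adjusted p = 0.0100). The CXCR6 call was lost with no scaling between arrays (0.39, adjusted p = 0.350).

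CXCR3, the receptor of CXCL9 to CXCL11 on activated T cells, lay just outside the threshold. Its levels were 17.1, 15.2, 21.5 and 14.4% in CPE, against 12.9, 13.8, 14.2 and 10.7% in CONTROL, and the groups did not overlap by a narrow margin. CXCR3 had a log2 change of 0.39 (SE 0.14, adjusted p = 0.0525, limma), and passed under 5 of 23 alternative settings, among them local centring (0.46) and leaving out CPE replicate 4 (0.46, adjusted p = 0.0411). CCR7, the lymph node homing receptor of naive T cells, was lit on 4 CPE arrays and 3 CONTROL arrays. Its levels there were 35.5, 32.8, 49.7 and 9.56% in CPE, against 13.4, 11.7 and 12.1% in CONTROL. CPE replicate 4 lay below the CONTROL arrays, and the log2 change of 1.14 did not pass (SE 0.51, adjusted p = 0.105, limma). Without CPE replicate 4 it was 1.64 and passed (adjusted p = 0.00106). On that array the surroundings of the CCR7 spot were dimmer, at -1.48 log2 units, against -0.42 to -0.29 on the other CPE arrays and -0.57 to -0.43 on the lit CONTROL arrays.

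CCR4, a receptor of helper and regulatory T cells, was read at probe A_73_110464, which was well above background on all 4 CPE arrays and on none of the CONTROL arrays, of which 3 were lit. Its levels on lit arrays were 9.48, 13.6, 12.4 and 6.15% in CPE, against 2.85, 2.36 and 3.24% in CONTROL. The CONTROL values are not well above background, so no fold is given. The surroundings of that spot were brighter in CPE, at -0.30 to 0.025 log2 units, against -1.40 to -0.98 on the 3 lit CONTROL arrays. The other CCR4 probes, mostly in dark surroundings, did not show the same pattern: A_73_P032236 was well above background on 2 CPE arrays and 1 CONTROL array, and A_73_P102776 on 1 CPE array and no CONTROL array. The chemokine scavenger ACKR3 (CXCR7 in the files) and the gut homing receptor CCR9 were each well above background on 3 of 4 CPE arrays and on no CONTROL array. The monocyte receptor CCR2 was so on 2 CPE arrays, and the T cell receptor CCR8 and the ligands CCL24 and CXCL12 were so on 1 CPE array each. CXCL11 was well above background on 1 CONTROL array and on no CPE array. For ACKR3, CCR9, CCR2, CCR8, CCL24, CXCL12 and CXCL11 the level of the brighter group did not exceed the lowest detectable level on the arrays of the other, so none has a fold.

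Of 15 T cell markers 10 were tested and 7 rose, where the same test called 24.3% of all genes higher. Among those 7 were CD3D (1.05), CD3G (0.99) and CD3E (0.58), chains of the T cell receptor complex. CD28, LCK and TRAT1 did not pass, and none fell. The summed level of the 10 was 64.3 to 71.0 in CPE and 46.9 to 51.1 in CONTROL. Most of that sum was CD247 and CD3E, so it does not describe the markers as a set. CD247 read 2762 to 3425% in CPE and 2060 to 2253% in CONTROL, and CD3E 1576 to 1949% and 1141 to 1250%. None of 5 tested B cell markers passed, with sums, mostly CD79A, of 33.6 to 41.2 in CPE and 35.6 to 38.7 in CONTROL. ALOX15, the 1 tested of 10 eosinophil and basophil markers, fell (-1.44). Of 2 tested gamma delta T cell markers, CD163L1 rose (0.61) and GATA3 did not pass (0.16). HBB, the 1 tested of 11 red cell genes, did not pass (0.28). The part of the T cell markers in the CXCR6 change was not tested.

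**Figure D4:**
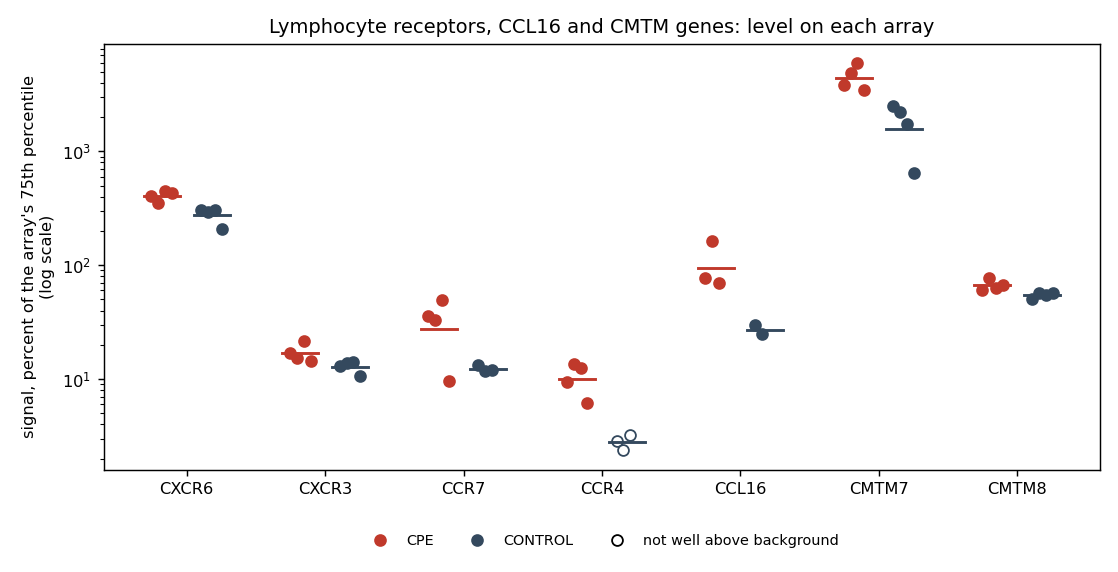
Level of lymphocyte receptors, CCL16, CMTM7 and CMTM8 on each array on which the spot was lit (points; CPE left, CONTROL right; log axis), as a percent of the 75th percentile of the array. Bars are means of log values, and open points are spots not well above background. CXCR6 reads 351 to 453% in CPE and 207 to 305% in CONTROL, and the lowest CCR7 value in CPE, 9.56%, lies below its CONTROL values.

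The CMTM genes encode chemokine-like proteins with a MARVEL membrane domain, and CMTM7 is best known in B cells. CMTM7 rose: its levels were 3825, 4846, 5930 and 3446% in CPE, against 2506, 2202, 1742 and 651% in CONTROL. The groups did not overlap, and CONTROL replicate 4 was far below the rest. The log2 change was 1.48 (SE 0.40, adjusted p = 0.0142, limma), and 1.05 without CONTROL replicate 4 (adjusted p = 0.00569). The surroundings of the CMTM7 spot were brighter in CPE by a mean of 1.06 log2 units, and after local centring the change was 0.87. CMTM8 rose by 0.29 (SE 0.094, adjusted p = 0.0299, limma), with levels of 61.1 to 76.4% in CPE and 50.1 to 57.0% in CONTROL. The CMTM8 call was kept under 14 of 23 alternative settings. It was lost on leaving out CPE replicate 2 (0.23) or 4 (0.29), or CONTROL replicate 1 (0.25), 2 (0.31) or 3 (0.29). The surroundings of the CMTM8 spot were brighter in CPE by a mean of 0.27 log2 units, and after local centring the change was 0.16, beside a median of 0.14 over all genes. CMTM4 did not pass (log2 change 0.018, SE 0.083, adjusted p = 0.870, limma), and its levels were 14.4 to 15.5% in CPE and 14.0 to 16.7% in CONTROL.

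Over the whole array the median log2 change over all genes was -1.03, and several members had another direction than in the lit area. The cause was not tested. There, 7 of 14 members tested fell and none rose (35.7% of 6091 genes called, 1.92% higher and 33.8% lower). CXCR6, CXCR3, CMTM8 and CXCL16 had negative values over the whole array but lay above that median. The 7 that fell all lay below it: CXCR1, CXCR2, CX3CR1, CCL19, CXCL10, CCL25 and XCL1. Of these, CXCL10 (-1.73, adjusted p = 0.0147) and CCL25 (-1.32, adjusted p = 0.0435) did not pass in the lit area. XCL1 (-1.91, adjusted p = 0.00627, all limma) had no lit probe. The authors' deposited table averages each group over the whole array. In it, 13 of 17 member probes were lower in CPE and 4 were higher, among them CCL16, CCR7 and CMTM7. The share of all probes lower in that table is not given here, so these counts are read as no result about the members. GRO1 differed by -5.44 in the authors' deposited table, the lowest value among these 17 probes.

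Genes that work with chemokine receptors were described from 6 lists of the pathway, with 132 genes on the array and 59 tested. Of these, 13 rose, 16 fell and 30 did not pass, beside 47.4% called among all genes, with a median change of -0.027. The 1 measured gene among the other chemokines was PPBP, the platelet chemokine CXCL7 that also acts on CXCR2. Its levels were 138, 163, 196 and 139% in CPE, against 53.9, 52.0, 66.8 and 55.7% in CONTROL. PPBP thus moved in the direction opposite to GRO1, with a log2 change of 1.47 (SE 0.13, adjusted p = 6.15e-05, limma). PPBP is itself a platelet marker, and the other platelet marker tested, VWF, also rose (1.13).

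At the receptor, 5 of 16 tested genes for G proteins, arrestins, receptor kinases and RGS proteins rose and 3 fell. GNG2 and GNAI3, a gamma subunit and an inhibitory alpha subunit of G proteins, rose by 1.26 and 0.98 on the log2 scale. GRK2, the kinase that marks active receptors for uptake, fell (-0.91, adjusted p = 0.00409). The probe that the files name RGS2, a brake on G protein signalling (LOC513055 in the reference table), also fell (-1.11, adjusted p = 0.000149, both limma). Its levels were 775, 733, 560 and 783% in CPE, against 1484, 1473, 1474 and 1686% in CONTROL, so the groups did not overlap.

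Further downstream, 3 of 13 kinase and lipid signalling genes rose and 3 fell. PRKCD, a protein kinase C, and FYN, a Src family kinase of T cells, rose by 0.99 and 0.66, while JAK2, a kinase of cytokine receptors, had a smaller fall (-0.35). Among 14 genes for GTPases, actin and integrins, 3 rose and 6 fell. ELMO1, which links chemokine receptors to Rac activation, had the largest fall of the lists. Its levels were 18.3, 18.1, 19.0 and 17.0% in CPE, against 80.9, 81.0, 82.2 and 93.8% in CONTROL. Both groups were tight and far apart, with a log2 change of -2.22 (SE 0.082, adjusted p = 1.56e-06, limma). WASL, an activator of actin branching, fell (-1.37), and TLN1, which switches integrins to their active form, and RAP1A, the GTPase upstream of it, rose (1.22 and 0.82). TLN1 had probes that disagreed, and the mean over its probes changed by 0.13 (adjusted p = 0.393, limma).

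Of 10 tested genes for NF-kB and the inducers of chemokine transcription, none rose and 2 fell. They were TLR4, the endotoxin receptor (-0.84, adjusted p = 0.00743), and NFKBIA, the NF-kB inhibitor that NF-kB itself induces (-0.77, adjusted p = 0.000348, both limma). Among 5 other chemoattractant receptors, LTB4R, the leukotriene B4 receptor, rose (0.61). C5AR2, a receptor for complement C5a, and PTAFR, the receptor for platelet-activating factor, fell (-1.10 and -0.45). The PTAFR call lay close to the threshold and was lost on leaving out CPE replicate 1, 2 or 4 or CONTROL replicate 1, 2 or 3 (-0.49 to -0.37).

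**Figure D5:**
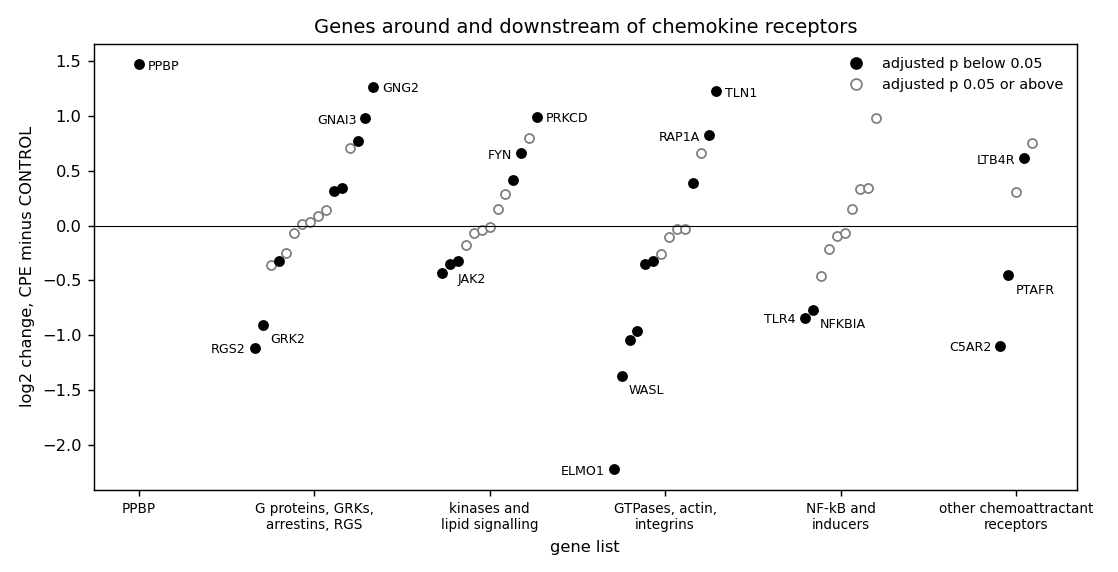
Log2 change, CPE minus CONTROL, of the 59 tested pathway genes in 6 lists (points, ordered by change within a list). Filled points passed an adjusted p of 0.05, and the labels mark the largest rises and falls called in each list that are reported here. ELMO1 is the lowest point at -2.22 and PPBP the highest at 1.47.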

How the data were processed

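Signal intensity per spot was read from the 8 deposited scanner files, which the authors extracted with Agilent's Feature Extraction software (10.10.1.1), per the submitters' processing notes. Processed signal intensity in these deposited files is background-subtracted and not normalised between arrays. The deposited averages table holds log2 values per group, averaged by the authors, and gave probe names and sequences. 

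The 1417 control spots and outlier spots (12 to 73 per array) were left out. A spot counted as lit where the 90th percentile of log2 median signal over its 61 nearest spots exceeded the array's 90th percentile of such values minus 1.5. Log2 processed signal was taken minus the array's 75th percentile over the spots lit on all 8 arrays, with spots of a probe averaged. Probes lit and well above background on all 8 arrays were fitted with limma 3.58.1 in R 4.3.3 (two-sided, empirical Bayes, Benjamini-Hochberg over the 7219 probes). A gene was represented by its brightest tested probe. GRO1 comes from the filter on at least 1 group (8085 probes), and CCL16 and CCR7 from spots lit on at least 2 arrays of each group (8638 probes), with dark arrays left out of their fits. The fit was also run on simulated data with independent arrays. Those data held no effect of slide, pool or local brightness, so that run does not bear on the calls given here. Of the probes, 26832 were named by transcript accession, 6525 by symbol, 131 by synonym and 1387 by file symbol alone. The reference table is of another assembly than the array design, so no positions are given.

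Members measured in the lit area are named, and a few genes are not reported here. From each pathway list, up to 2 rises and 2 falls called are named, and marker lists are given as counts with defining genes. The members and lists were chosen with earlier results of these data known. Alternatives were 3 other scalings, normexp (offset 50, on median signal, since the files used here hold no mean signal), other filters and lit limits, 121 neighbours, the whole array, local centring, another variance model, probe averaging, a replicate block, leaving out each array, and the authors' averages.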

Additional observations from a re-analysis of the deposited data

Results flagged for a closer look

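Samples were looked at in 86 groups of 4 values, and 12 held an array far from the other 3, with a gap to the nearest of them beyond Dixon's 95% limit. Chance flags about 1 group in 20.

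CPE replicate 3 was the array concerned for several members. The gap was 0.870 of the range for CXCR1, whose log2 level was 7.13 there and 7.85 to 7.96 on the other CPE arrays. It was 0.861 for CXCR2 (3.70, others 4.80 to 4.98) and 0.851 for CXCL10 (3.85, others 4.88 to 5.06). All 3 were lowest on that array, while GNAI3 (0.907) and RAP1A (0.953) were highest on it. The summed level of gamma delta T cell markers was lowest there (9.09, others up to 12.3, a gap of 0.897).

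CONTROL replicate 4 was low for CXCR6 (a gap of 0.909, log2 level 7.69, others 8.20 to 8.25) and for GNG2 (0.872). The same array was high for RGS2, listed as LOC513055 (0.942), for ELMO1 (0.895) and for the summed neutrophil markers (0.955, with 107 against 97.7 to 98.1). S100A12 made up most of that sum. In CONTROL replicate 3, TLR4 was high (0.924).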

How the results depend on the processing

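Of 814 values of 35 single probes under alternatives, 25 turned direction, 46 lost a call and 12 gained one. GRO1, CXCR1, CXCR2 and the brighter CX3CR1 probe kept direction and call in every setting with a test. The GRO1 calls are not read as support, since GRO1 passed the filter only through CONTROL. Over the whole array, whose median change was -1.03, values turned for CXCR3 (-0.74), CXCL16 (-0.89), CMTM4 (-1.11), CXCR6 (-0.55), CMTM8 (-0.83), GNAI3 (-0.15), PRKCD (-0.13), FYN (-0.46), RAP1A (-0.30) and LTB4R (-0.51). They turned alike in the authors' deposited table, with CXCR3 at -0.74, CXCL16 at -0.89, CMTM4 at -1.11, CXCR6 at -0.55, CMTM8 at -0.83, GNAI3 at -0.15, PRKCD at -0.14, FYN at -0.47, RAP1A at -0.30 and LTB4R at -0.51. CMTM4, which did not pass in any setting with a test, also turned without scaling (-0.16), with a lit limit of 2 (-0.013), without CONTROL replicate 2 (-0.00077) and without CONTROL replicate 3 (-0.0085), in a range up to 0.075 with 1 array left out. CCL25 turned under local centring and passed there (0.16, adjusted p = 0.0443, limma), beside a median of 0.14 over all genes.

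The genes called (2296) numbered 741 without scaling (195 higher, 546 lower), 1254 with normexp, 3454 with no filter (1380 higher, 2074 lower) and 3497 with local centring (2249 higher, 1248 lower). Over the whole array 117 were higher and 2058 lower. The 29 pathway genes called became 14 without scaling and 18 with normexp. With no filter, 17 of the 32 members with a lit probe were called, beside 7 of 12 in the main test. The share of all genes called is not given for that setting, so this count is read as no result about the members. The whole array gave 1 pathway gene higher and 24 lower, and local centring gave 27 higher and 14 lower. The cause was not tested. Leaving out 1 array gave 1861 to 2679 genes, 6 to 8 members and 24 to 30 pathway genes. The filter was that of the main test, with 4848 genes and 12 members, and the member counts are read as no result about the members.

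Same-numbered arrays deviated from their groups with correlations of -0.12, -0.17, 0.29 and 0.41, so the numbers were not taken as pairs. With the replicate block, 2267 of 4848 genes, 8 of 12 members and 32 of 59 pathway genes were called. Local centring could not be run for CCL16 and CCR7, which were not lit on all arrays, nor could some limits for probes that then left the lit area. Dim members, such as GRO1 in CPE and CCL19, are limited by signal over background.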
